A study of Caenorhabditis elegans with 4 samples.

Results

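The cyp-35 genes of C. elegans encode a family of cytochrome P450 enzymes, and the 10 genes named cyp-35A1 to cyp-35A5, cyp-35B1 to cyp-35B3, cyp-35C1 and cyp-35D1 were taken by their names from the 46766 genes of the deposited table, which holds 75 genes named cyp-. RNA came from whole worms of the wild-type strain N2, the standard laboratory strain, in synchronized populations 22 days old. The GNC group was treated with Gengnianchun (GNC), a water extract of a Chinese herbal formula, at 3.94 mg/mL, the control group received water as the vehicle, and both groups were fed E. coli OP50 and had 2 libraries each. The protocols give S-complete liquid medium for the culture, whereas the series description names nematode growth medium. The libraries held from 18639631 to 21753657 counts, of which the 10 cyp-35 genes took 0.00589% and 0.00560% in the GNC libraries and 0.00312% and 0.00323% in the control libraries. A normalized count is given as CPM, counts scaled to a common library size, and levels of different genes were compared only as FPKM, which also divides by gene length.

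Cytochrome P450 enzymes are heme proteins that oxidize lipids, hormones and foreign compounds, with electrons passed from NADPH by a P450 reductase. In C. elegans, genes of the cyp-35 family are expressed mainly in the intestine and are known for their induction by drugs, pesticides and other xenobiotics. Knockdown of cyp-35A genes is also known to lower fat storage in the worm.

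With GNC, 3 cyp-35 genes, namely cyp-35A1, cyp-35A5 and cyp-35C1, were at least 2-fold higher, and cyp-35B1 was higher by slightly less than 2-fold. The most abundant member, cyp-35A2, did not pass the test, and neither did cyp-35A3 and cyp-35A4. The remaining genes, cyp-35B2, cyp-35B3 and cyp-35D1, had too few counts to be tested. A gene was called when it changed at least 2-fold, the cut-off of the study's methods, and had an adjusted p under 0.05 in the quasi-likelihood test of edgeR, adjusted by Benjamini-Hochberg over 16341 genes. Of the 10 members, 7 passed the filter on low counts, 3 were called higher and 0 lower. Without the fold threshold, 4 members were higher and 0 lower. Of the genes tested in the whole table, 4.97% were called higher and 2.23% lower, and without the fold threshold 19.8% were higher and 20.5% lower. In 5 of the 7 tested members the groups did not overlap with GNC the higher, and in 0 with GNC the lower, against 36.5% and 34.5% of the genes tested. Since cyp-35A1 and cyp-35A5 passed the filter through their GNC libraries alone, the count over the 7 genes tested is a description.

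**Figure D1:**
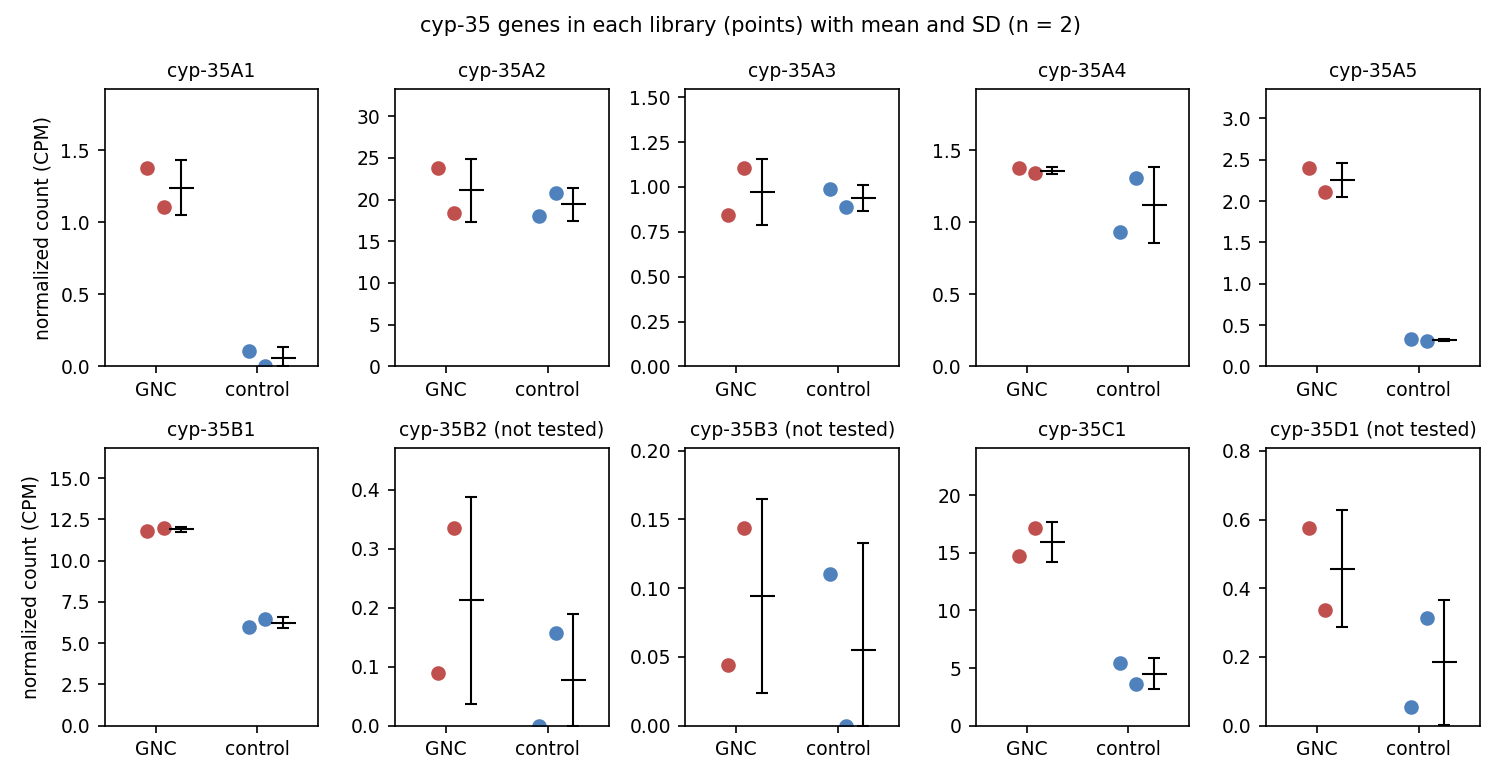
Normalized count (CPM, vertical axis, a scale of its own for each gene) of the 10 cyp-35 genes in the GNC libraries (red points) and the control libraries (blue points), with the mean and SD of 2 libraries (black, cut off at 0). The groups lie farthest apart for cyp-35A1, cyp-35A5, cyp-35C1 and cyp-35B1, while for cyp-35A2 one GNC library lies above and one below the mean of the control libraries.

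All 10 genes lie on chromosome V. Positions are those of the deposited table, on the genome build WBcel235, and the strand, exons, spans and gaps between genes are from the Ensembl annotation of the same build, whose gene ends differ from the table's by up to 101 bases. A group of 6 genes on the plus strand spans 97.1 kb and runs in the order cyp-35A5, cyp-35B1, cyp-35B2, cyp-35B3, cyp-35A3 and cyp-35A4. The genes cyp-35A1 and cyp-35A2 lie 545 bases apart on the minus strand, and cyp-35C1 and cyp-35D1 stand alone. The cyp-35A genes and cyp-35C1 have 7 exons, the cyp-35B genes 5 and cyp-35D1 has 6.

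In the cyp-35A subfamily, the change differed widely between genes of the same name. The gene cyp-35A1 (WBGene00015399, 7359997 to 7361773), which is known to be induced by xenobiotics, had counts of 31 and 23 in the GNC libraries, against 2 and 0 in the control libraries. Both GNC libraries were higher, and both control libraries were under a floor of 3 counts. From the summed counts of 54 and 2, the ratio of GNC to control was 23.2, with an exact 95% interval of 6.13 to 197 that covers counting error only. The fitted log2 fold change was 4.39 (SE 0.69, 95% interval 2.84 to 5.93, edgeR adjusted p = 0.000923). With so few control counts its size depended on the prior count, at 3.14 with a prior count of 2. The interval of the fit was narrower than the exact one put on a log2 scale, so it is too narrow here. The call of cyp-35A1 was the least firm of the 3. Without control replicate 1 the fitted value was 7.70, outside the interval of the fit, since the other control library was at 0. Against the 2-fold threshold itself the adjusted p in edgeR's test was 0.0574, and DESeq2 gave it no adjusted p.

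The gene cyp-35A5 (WBGene00019473, 3936374 to 3938496) had counts of 54 and 44 in the GNC libraries, against 6 and 6 in the control libraries, or 2.40 and 2.11 CPM against 0.330 and 0.313 CPM. The groups did not overlap. Its log2 fold change was 2.79 (SE 0.36, 95% interval 1.99 to 3.58, edgeR adjusted p = 0.000306). The call was kept in all 14 alternatives in which the gene was tested. With at least 10 counts asked for in every library, cyp-35A5 was not tested. The alternatives use the same libraries, so they are no further support for the call.

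The gene cyp-35A2 (WBGene00015400, 7362316 to 7364204), a xenobiotic-inducible gene and the neighbour of cyp-35A1, had 23.7 and 18.4 CPM in the GNC libraries, against 17.99 and 20.8 CPM in the control libraries. GNC replicate 1 was the highest of the 4 libraries and the groups overlapped. The log2 fold change was 0.12 (95% interval -0.18 to 0.42, adjusted p = 0.504 from edgeR's test), so an increase of 2-fold lay outside the interval, and the value was -0.012 after rescaling to the same median. With counts from 327 to 535 per library, it was the most deeply counted of the members.

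The genes cyp-35A3 (WBGene00019565, 4022619 to 4024473) and cyp-35A4 (WBGene00016786, 4031627 to 4033387) did not pass the test either. Counts of cyp-35A3 were 19 and 23 in the GNC libraries and 18 and 17 in the control libraries, and its normalized counts overlapped between the groups. Its log2 fold change was 0.05 (95% interval -0.72 to 0.82, adjusted p = 0.924 from edgeR's test), and -0.082 after rescaling to the same median. For cyp-35A4 the counts were 31 and 28 with GNC, against 17 and 25 in control, or 1.38 and 1.34 CPM against 0.935 and 1.31 CPM. Both GNC libraries lay above the control libraries, but the difference of the means was smaller than the SD of the controls, 0.261 CPM. The log2 fold change of cyp-35A4 was 0.27 (95% interval -0.43 to 0.98, adjusted p = 0.525 from edgeR's test).

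**Figure D2:**
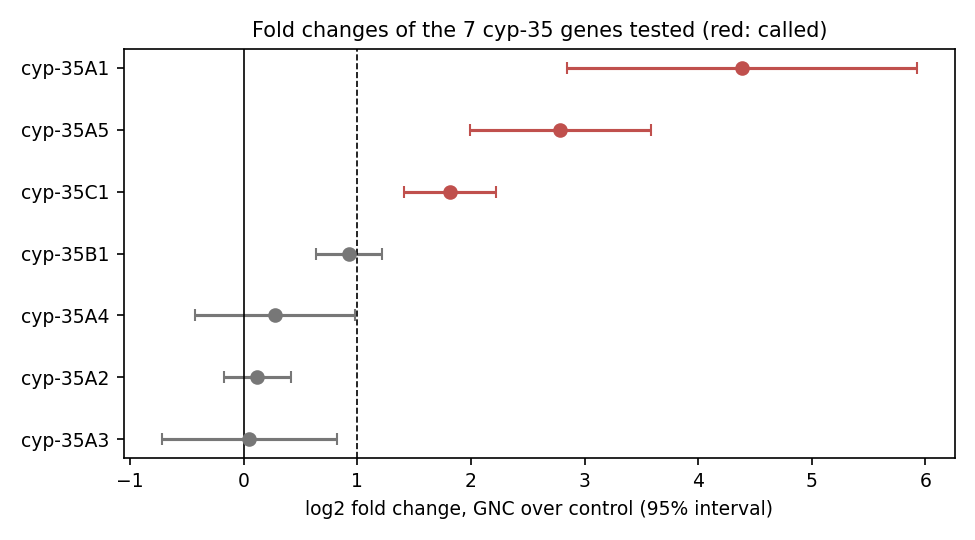
The log2 fold change of GNC over control (horizontal axis) for the 7 cyp-35 genes tested, with 95% intervals from edgeR's fit, called genes in red, a line at 0 and a dashed line at 2-fold. The intervals of cyp-35A1, cyp-35A5 and cyp-35C1 lie above 2-fold, that of cyp-35B1 (0.64 to 1.22) includes it, and those of cyp-35A4, cyp-35A2 and cyp-35A3 include 0. The interval of cyp-35A1, with control counts of 2 and 0, is too narrow.

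The cyp-35B subfamily was represented mainly by cyp-35B1 (WBGene00019472, 3939127 to 3941235), also known as dod-13, one of the genes that respond to the insulin pathway through DAF-16. It had 11.8 and 12.004 CPM in the GNC libraries, against 5.998 and 6.47 CPM in the control libraries. The replicates were close together and the groups were well apart. The log2 fold change was 0.93 (SE 0.13, edgeR adjusted p = 0.000487), so the gene rose but was not called at the 2-fold threshold. It crossed that threshold in 3 of 15 alternatives, at 1.006 with upper quartile scaling, 1.03 with library totals and 1.013 in limma's test of FPKM.

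Its neighbours cyp-35B2 (WBGene00019471, 3942215 to 3944519) and cyp-35B3 (WBGene00019470, 3945353 to 3947044) were close to the limit of detection. Counts of cyp-35B2 were 2 and 7 in the GNC libraries and 0 and 3 in the control libraries. Counts of cyp-35B3 were 1 and 3 with GNC and 2 and 0 in control. The ratios of the summed counts were 2.58 (exact 95% interval 0.645 to 14.8) for cyp-35B2 and 1.72 (exact 95% interval 0.247 to 19.04) for cyp-35B3, and a difference was not detectable at this depth. Annotated noncoding genes that overlap cyp-35B1 (K07C6.16) and cyp-35B3 (K07C6.17) on the other strand were listed at 0 in the 4 libraries. Whether reads were counted by strand is not given in the sources used here.

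The gene cyp-35C1 (WBGene00007362, 13896657 to 13898488), also known for its induction by xenobiotics, had counts of 331 and 358 in the GNC libraries, against 99 and 69 in the control libraries. This was 14.7 and 17.2 CPM with GNC, against 5.45 and 3.602 CPM in control, and the lowest GNC library was well above the highest control library. Its log2 fold change was 1.82 (SE 0.18, edgeR adjusted p = 9.00e-05). The call was kept in all 15 alternatives, with values from 1.54 without control replicate 2 to 2.14 without control replicate 1.

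The gene cyp-35D1 (WBGene00008829, 16069238 to 16071259), which is known to metabolize the anthelmintic thiabendazole, had counts of 13 and 7 in the GNC libraries, against 1 and 6 in the control libraries. The normalized counts did not overlap, but by a small margin, with 0.336 CPM in the lower GNC library and 0.313 CPM in the higher control library. The ratio of the summed counts of 20 and 7 was 2.46, with an exact 95% interval of 0.999 to 6.89. It was not tested because of its low counts, and without the filter its adjusted p was 0.402 from edgeR's test. The nuclear receptor gene nhr-176, which by the Ensembl annotation lies 6 bases downstream on the same strand and whose product is known to be needed for the induction of cyp-35D1 by thiabendazole, had 173 and 146 counts with GNC and 114 and 106 in control. Its log2 fold change of 0.32 did not pass the test (adjusted p = 0.1252 from edgeR's test).

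Per unit length, 3 genes held most of the family's transcripts in both groups. In GNC-treated worms the mean level was 13.5 FPKM for cyp-35A2, 10.7 FPKM for cyp-35C1 and 7.24 FPKM for cyp-35B1, followed by 1.48 FPKM for cyp-35A5. The libraries of these neighbours in the order did not overlap, whereas those of cyp-35A4 (0.948 FPKM) and cyp-35A1 (0.912 FPKM) did. In control worms cyp-35A2 was highest at 11.6 FPKM, and cyp-35B1 at 3.54 FPKM and cyp-35C1 at 2.84 FPKM overlapped. The next genes, cyp-35A4 at 0.726 FPKM and cyp-35A3 at 0.578 FPKM, overlapped as well. The gene cyp-35A5 had 0.197 FPKM in control worms, and cyp-35A1 had 0.0381 FPKM. From cyp-35A5 downwards, each control gene overlapped the next in the order, so these ranks cannot be told apart.

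The summed level of the family was higher with GNC, though not every member rose. In mean CPM the rise was largest for cyp-35C1 (15.9 with GNC, 4.53 in control) and cyp-35B1 (11.9 with GNC, 6.24 in control). The genes cyp-35A2, cyp-35A3 and cyp-35A4 did not pass the test. How reads shared by similar genes were counted is not given in the sources used here, so the split among members is uncertain where their sequences are alike. The 10 genes together had 56.9 and 54.1 CPM in the GNC libraries, against 32.0 and 33.9 CPM in the control libraries, a log2 ratio of 0.75. The groups did not overlap, and the difference was larger than the spread between replicates, with 55.5 ± 1.98 CPM (SD, n = 2) for GNC and 32.9 ± 1.35 CPM (SD, n = 2) for control. Without cyp-35A2 the sum was 34.4 ± 1.78 CPM (SD, n = 2) with GNC and 13.5 ± 0.655 CPM (SD, n = 2) in control. A sum without overlap was not particular to cyp-35. The 65 other genes named cyp- summed to 946 and 938 CPM with GNC, against 821 and 818 CPM in control.

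The share of cyp-35A2 in the family's counts was 41.7% (exact 95% binomial interval 39.0 to 44.5) and 34.1% (31.3 to 36.9) in the GNC libraries, against 56.3% (52.1 to 60.4) and 61.5% (57.6 to 65.2) in the control libraries. The share of cyp-35C1 was 25.8% and 31.8% with GNC, against 17.0% and 10.6% in control. That of cyp-35A1 was 2.42% and 2.04% with GNC, against 0.344% and 0% in control, and that of cyp-35A5 was 4.21% and 3.90%, against 1.03% and 0.924%. For these 4 genes, as for cyp-35A3 and cyp-35A4 (lower with GNC) and cyp-35B1 (higher), the shares did not overlap between the groups. A two-sided exact permutation test gave p = 0.333, the smallest that 2 libraries against 2 allow, so it cannot decide. Shares sum to the whole, so those of cyp-35A2, cyp-35A3 and cyp-35A4 can be lower without a fall in their normalized counts. The mean share of cyp-35B1 was 21.4% with GNC and 18.9% in control.

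**Figure D3:**
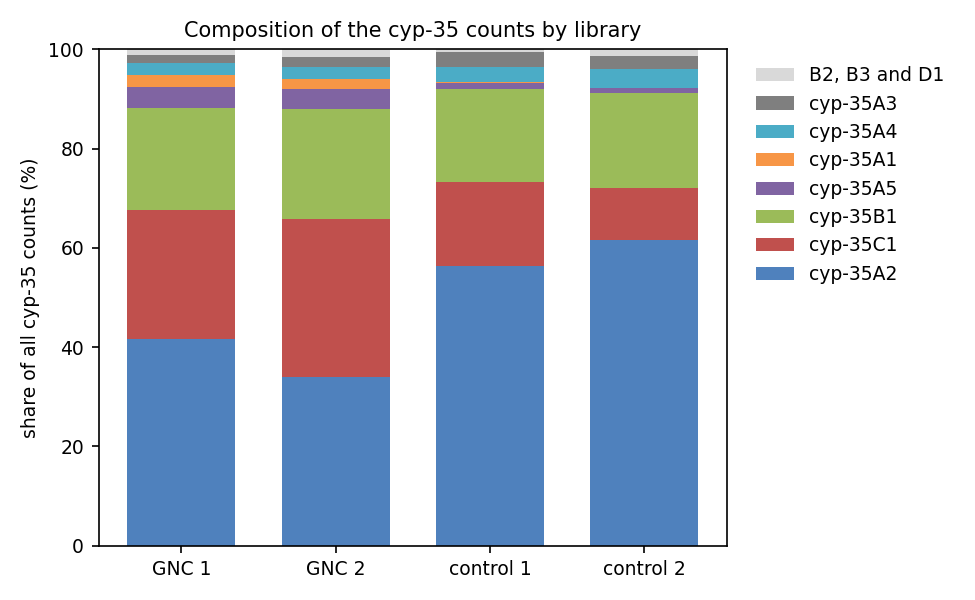
Share of each gene in all cyp-35 counts (vertical axis, percent) in the 2 GNC libraries and the 2 control libraries, stacked to the whole, with cyp-35B2, cyp-35B3 and cyp-35D1 added together. The segment of cyp-35A2 is 41.7% and 34.1% with GNC and 56.3% and 61.5% in control, and the segments of cyp-35C1, cyp-35A5 and cyp-35A1 are larger with GNC.

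The genes around the members did not share one direction. Within the 6-gene group and 10 kb on either side, 30 other protein-coding genes were in the table, of which 19 were tested. Of the 19, 3 were higher and 6 lower at an adjusted p under 0.05, against 19.8% and 20.5% of all genes tested. The 30 genes include 7 cyp-34A genes of a related P450 subfamily, of which 2 were higher and 1 lower. The highest was cyp-34A4, named dach-1 in the Ensembl annotation, with a log2 fold change of 0.86, and the lowest cyp-34A9, with -0.48. Around cyp-35A1 and cyp-35A2, 2 of 7 neighbours were tested, and 1 was higher and 1 lower. Around cyp-35C1, 1 of the 6 tested was higher and 1 lower. Around cyp-35D1, 2 of the 3 tested were higher, among them F14H3.15, which was called with a log2 fold change of 1.26.

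**Figure D4:**
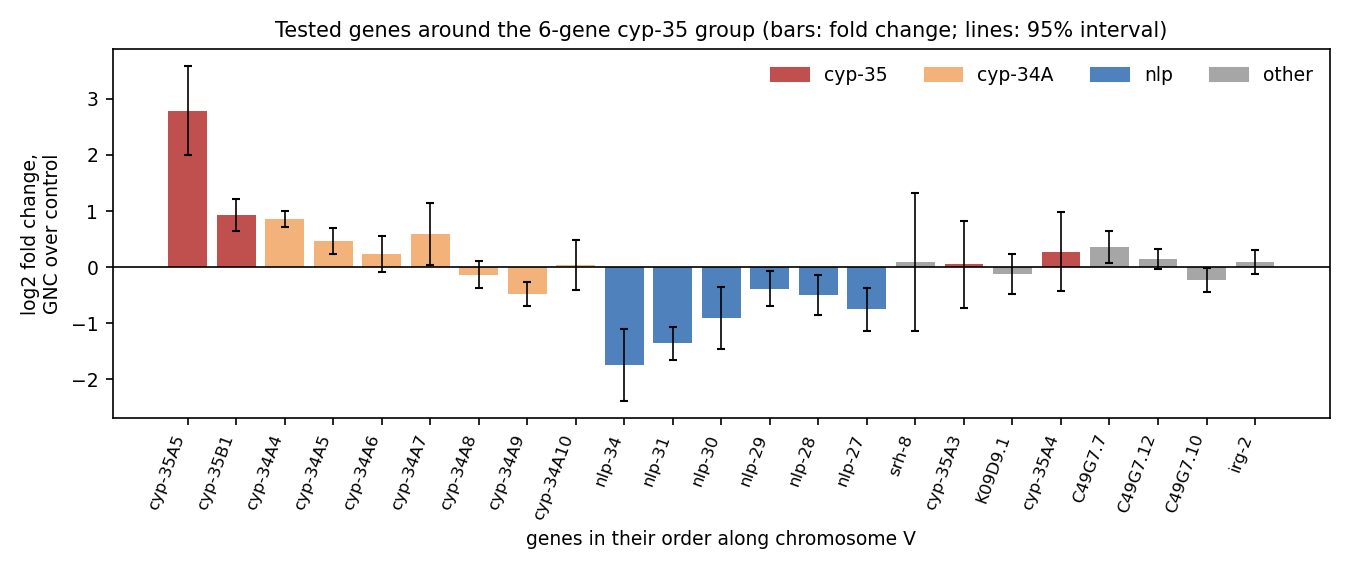
The log2 fold change of GNC over control (vertical axis, with 95% intervals) for the tested genes from cyp-35A5 to cyp-35A4 and within 10 kb, in their order along chromosome V (not to distance), coloured by family. High bars for cyp-35A5 (2.79) and cyp-35B1 (0.93) stand beside mixed values of the cyp-34A genes, and cyp-35A3 (0.05) and cyp-35A4 (0.27) at the other end are near 0.

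Other P450 genes changed in both directions. Of the 65 other genes named cyp-, 57 were tested, and 15 were higher and 6 lower at an adjusted p under 0.05. The shares over all genes tested were 19.8% and 20.5%. Of the 57, 4 were called higher and 1 lower, against 4.97% and 2.23% of all genes tested. The median log2 fold change of the 57 was 0.17, against 0.02 for all genes tested. Their counts were 22 higher and 6 lower under upper quartile scaling, 23 and 5 with library totals, and 12 and 10 after rescaling to the same median. Shares over all genes under these scalings are not given here. Those called higher were cyp-33D1 (1.32), cyp-29A4 (1.30), cyp-25A1 (1.23) and cyp-13A5 (1.12), and cyp-37B1 was called lower (-1.04), each value being a log2 fold change. The call of cyp-37B1 was lost with upper quartile scaling and library totals (-0.94 with the second), and that of cyp-13A5 after rescaling to the same median (0.99). In the related subfamilies cyp-14, cyp-33, cyp-34 and cyp-36, 27 of 33 genes were tested, 6 were higher, 2 lower and 1 called. No difference between these lists and the cyp-35 genes was tested.

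Of 5 genes for electron donors of P450 enzymes, 0 were higher and 2 lower at an adjusted p under 0.05. The shares over all genes tested were 19.8% and 20.5%. The P450 reductase gene emb-8 had 3169 and 2817 counts with GNC and 2510 and 2573 in control, with a log2 fold change of 0.02 (adjusted p = 0.821 from edgeR's test) that was -0.11 after rescaling to the same median. The cytochrome b5 gene cytb-5.2 (-0.25) and hpo-19 (-0.18), a cytochrome b5 reductase gene, were lower on the log2 scale. With library totals none of the 5 passed the test.

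Among 13 regulators of xenobiotic and fat metabolism genes, 4 were higher and 0 lower at an adjusted p under 0.05. The shares over all genes tested were 19.8% and 20.5%. At 2-fold, 0 regulators were called. The gene of the nuclear receptor NHR-8, known for its part in xenobiotic resistance, had 633 and 532 counts with GNC and 307 and 280 in control. Its log2 fold change was 0.77 (adjusted p = 0.000467 from edgeR's test), and it passed the test under all 4 scalings of the libraries. The others were sbp-1 (0.23), a lipid synthesis regulator, pqm-1 (0.19) and the intestinal GATA factor gene elt-2 (0.25), each a log2 fold change, and these 3 passed under 3 of the 4 scalings. After rescaling to the same median, 1 regulator was higher and 4 were lower. That scaling moved genes in general downwards, with a median of -0.112 on the log2 scale against 0.02 as reported. The all-gene shares under it are not given here, so these counts cannot be read as particular to regulators. The Mediator subunit gene mdt-15 (0.05), whose product is known to be needed for cyp-35 induction, did not pass the test. Nor did ahr-1 (-0.04), named for the aryl hydrocarbon receptor, and the FOXO factor gene daf-16 (-0.06). The sign of these 3 values differed between scalings.

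Of 12 other genes known to respond to the insulin pathway, 10 were tested, 0 were higher and 6 lower at an adjusted p under 0.05, against 19.8% and 20.5% of the genes tested. The insulin-like peptide gene ins-7, at 0.30 on the log2 scale (adjusted p = 0.19 from edgeR's test), mtl-1, hsp-16.2 and ctl-2 did not pass the test. The superoxide dismutase gene sod-3 had 197 and 186 counts with GNC and 217 and 262 in control, a log2 fold change of -0.54 (adjusted p = 0.00741 from edgeR's test). Values were -0.98 for dod-3, -0.87 for the lysozyme gene lys-7, -0.38 for gpd-2 and -0.31 for the catalase gene ctl-1. The gene dod-24, which is known to be repressed when DAF-16 is active, had 3 and 3 counts with GNC and 15 and 13 in control and was called lower. The list mixes genes that DAF-16 is known to raise and to lower, and was chosen with earlier results of these data known.

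Because whole worms were sampled, fewer cells of a type and less RNA per cell cannot be told apart. Among all genes tested, 19.8% were higher and 20.5% lower at an adjusted p under 0.05. Of 9 intestine markers, 8 were tested, and 3 were higher (elt-2, act-5 and cpr-1) and 3 lower (pept-1, asp-1 and vha-6). Their summed level was 689 and 663 CPM with GNC, against 755 and 849 CPM in control, and mtl-2 was listed at 0 in 1 control library. The largest part of the sum was asp-1, with 268 and 245 CPM with GNC, against 358 and 435 CPM in control. The gene act-5 went the other way, with 158 and 175 CPM with GNC, against 126 and 140 CPM in control. The lower sum was thus not shared by all intestine markers. After rescaling to the same median, which moved genes in general downwards, 1 intestine marker was higher and 4 were lower. The all-gene shares under that scaling are not given here, so these counts cannot be read as particular to intestine markers. All 6 oocyte markers were lower, with summed levels of 602 and 608 CPM with GNC and 1112 and 1124 CPM in control, and 4 of 6 sperm markers were higher, with 286 and 297 CPM against 216 and 215 CPM. Among embryo markers 4 of 6 were tested and among cuticle markers 2 of 5, and 0 passed the test in either list. Summed embryo levels were 7.28 and 7.44 CPM with GNC and 9.08 and 8.77 CPM in control, and the summed cuticle levels were 97.5 and 98.5 CPM against 81.4 and 98.4 CPM. The part of these shifts in the cyp-35 values was not tested.

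**Figure D5:**
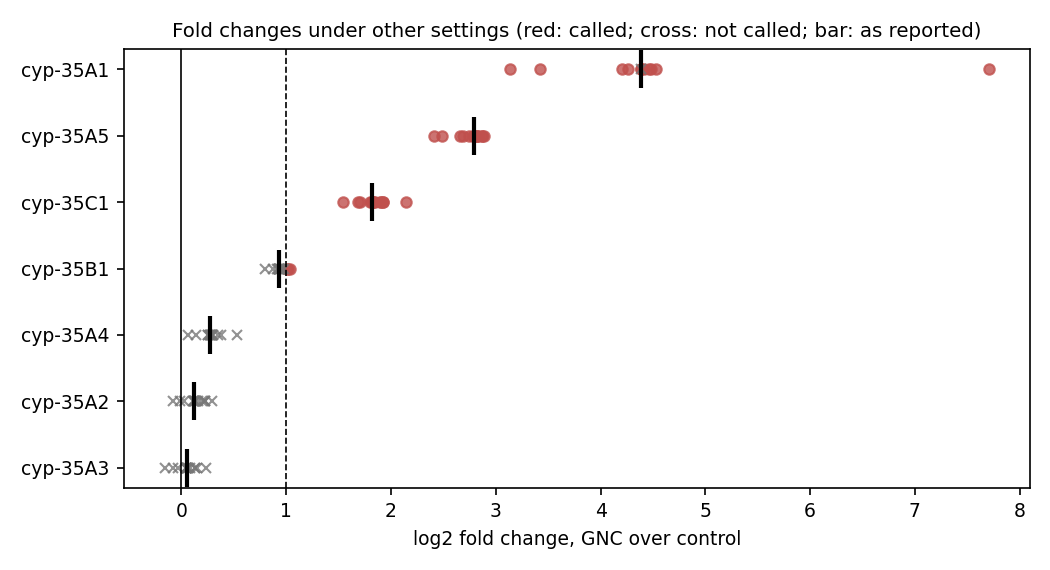
The log2 fold change of GNC over control (horizontal axis) of each tested cyp-35 gene under the alternatives (red points where called, grey crosses where not) and as reported (black bar), with a dashed line at 2-fold. Values of cyp-35A5 (2.41 to 2.89) and cyp-35C1 (1.54 to 2.14) stay right of the line, cyp-35B1 (0.80 to 1.03) lies at it, and cyp-35A2 and cyp-35A3 lie on both sides of 0.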

How the data were processed

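RNA-seq data of 2 GNC and 2 control libraries were compared. The authors deposited a count per gene for each library without normalization, and FPKM values. Their submission names CASAVA 1.8, TopHat2 2.1.0, Cuffdiff and the build WBcel235, and the counter is not given in the sources used here. In the 5 members counted deeply enough to check, FPKM was the count divided by a fixed length per gene and the library total. Counts were scaled by TMM, filtered with filterByExpr and tested over all genes with the quasi-likelihood F-test of edgeR 4.0.16 under R 4.3.3, treatment being the only term. Standard errors came from the F statistic. On simulated counts, 96 of 100 genes planted at a log2 change of 1.5 and 99 of 100 at 2.5 were called, and 0 of 15906 unchanged genes. The simulation gave all genes a common dispersion and planted changes in genes picked at random. It checks the code only and does not carry over to members with few counts or a wider spread. Replicates differed beyond sampling noise (chi-square per degree of freedom 6.74 for GNC and 6.45 for control), and nothing states that they were separate cultures, so p-values measure the spread between these libraries, which may be technical.

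Named were all members, called genes of each list (up to 5) and list genes with a stated role. Members within 100 kb of each other were taken as 1 group, a distance set after their positions were seen. The members and lists were chosen with earlier results of these data known. Alternatives were DESeq2 1.42.0, limma 3.58.1 on log2(FPKM + 0.1), other scalings, filters, tests and thresholds, a replicate block, and each library left out. Rescaling to the same median and the prior count of 2 were chosen after seeing the data. The exact intervals and the floors cover counting error only, while the intervals of log2 fold changes also include the spread between libraries as fitted by edgeR. No sequences were analysed here.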

Additional observations from a re-analysis of the deposited data

How the results depend on the processing

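The count of 3 members called higher was 4 with upper quartile scaling, library totals or no fold threshold, 2 against the 2-fold threshold and with DESeq2, and 1 with at least 10 counts in every library, where cyp-35A1 and cyp-35A5 were not tested. It was 3 when any 1 library was left out, and 0 were called lower in any setting. At an unadjusted p under 0.05, edgeR's test found 0 members lower. Among all 16341 genes tested, 1020 were called higher with upper quartile scaling, 1091 with library totals, 3238 without the fold threshold and 37 against the 2-fold threshold. With DESeq2 it was 636 of 15142, and with at least 10 counts in every library 697 of 15264. The member counts are therefore not comparable between these settings. The log2 ratio of the summed CPM was 0.83 with upper quartile scaling, 0.86 with library totals and 0.62 when rescaled to the same median, and from 0.71 to 0.79 with 1 library left out. Over all genes tested, the median was 0.02 on the log2 scale as reported, 0.122 with library totals and -0.112 when rescaled to the same median. For cyp-35A2 the value turned to -0.012 when rescaled to the same median, and ran from -0.076 without GNC replicate 1 to 0.29 without GNC replicate 2. For cyp-35A3 it turned to -0.082 when rescaled to the same median, and ran from -0.15 without GNC replicate 2 to 0.23 without GNC replicate 1, with -0.035 without control replicate 2. The low counts of cyp-35D1 let it pass the filter with 1 library left out in 3 cases, with log2 fold changes from 0.55 without control replicate 1 to 2.93 without control replicate 2 (adjusted p = 0.0601 from edgeR's test). Whether the replicate numbers mark pairs is not stated in the sources used here. The replicate differences of the groups had r = 0.039 over genes, which are no independent replicates, so this cannot decide. With the replicate number as a block 3 members were called higher, with 4.38 for cyp-35A1, 2.78 for cyp-35A5, 1.82 for cyp-35C1 and 0.93 for cyp-35B1. Depth limits cyp-35B2, cyp-35B3 and cyp-35D1, with 0 to 13 counts per library.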

Other observations

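The span of the 6-gene cyp-35 group also holds nlp genes, the nlp-29 group of which is known for antimicrobial peptides of the epidermis. All 6 nlp genes within it were tested, 5 were lower at an adjusted p under 0.05, against 20.5% of the genes tested, and 2 were called lower, against 2.23%. The count of 5 depended on the scaling. Of the 4 scalings, nlp-28 passed the test under 2 and nlp-29 under 1, while nlp-27, nlp-30, nlp-31 and nlp-34 passed under all 4. For nlp-31 the counts were 446 and 392 in the GNC libraries, against 1043 and 801 in the control libraries, a log2 fold change of -1.36 (adjusted p = 8.82e-05 from edgeR's test). For nlp-34 they were 35 and 42 with GNC, against 137 and 85 in control, a log2 fold change of -1.74 (adjusted p = 0.0012 from edgeR's test). The nlp genes were set apart as a group after their values were seen.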
